A study of Homo sapiens with 16 samples.

Results

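This account describes 4 RNA sequencing libraries of Jurkat cells at day 10: 2 with a short hairpin RNA against SH2D1A (sh-SH2D1A) and 2 with a control hairpin (sh-NC). They were taken by their labels from a series of 16 libraries, which also holds Jurkat at day 8 and a further line, 6T-CEM, at days 5 and 10, each as 2 sh-SH2D1A and 2 sh-NC libraries. Jurkat is an established human line of T-cell acute lymphoblastic leukaemia (T-ALL). No drug or stimulus is named in the labels, and both arms carry a hairpin, so the comparison asks which messenger RNAs differ when the hairpin is aimed at SH2D1A. What started the count of days, the hairpin sequence, and whether the 2 libraries of an arm came from separate cultures are not stated in the labels. The p-values therefore measure the spread between these libraries, which may be technical.

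SH2D1A encodes SAP, a small SH2-domain adaptor that binds the cytoplasmic tails of SLAM family receptors. In T cells it links these receptors to the kinase FYN, and it competes with phosphatases such as SHIP for the same tails. SLAM receptors bind each other, or CD48, between blood cells, and signalling through them modifies the response to the T cell receptor and the maturation of several thymocyte lineages.

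The 4 libraries held between 29026797 and 30838474 counts, with 4.15 to 4.47% from mitochondrially encoded genes. Levels are given in CPM, the count scaled to the library's total over tested genes, adjusted by edgeR's TMM factor. Sums of marker genes use the library's total of all counts instead. A change is the log2 fold change of sh-SH2D1A over sh-NC ± its standard error over 2 libraries an arm. A gene is called higher or lower when edgeR's quasi-likelihood test gave a Benjamini-Hochberg adjusted p under 0.05 over all tested genes. The first principal component of all genes held 45.36% of the variance and set the sh-SH2D1A libraries apart from the sh-NC libraries, while the second, with 28.5%, did not and had both replicate 1 libraries above 0 and both replicate 2 libraries below 0. T-lineage identity was visible in every library: LCK, the proximal T cell receptor kinase, had 834 and 809.7 CPM with sh-SH2D1A, against 862 and 829 CPM with sh-NC, and CD3E had 477 and 437 CPM with sh-SH2D1A, against 538 and 519 CPM with sh-NC. TAL1, the T-ALL oncogene of this line, had 297 and 299 CPM with sh-SH2D1A, against 316 and 314 CPM with sh-NC, and none of these 3 genes was called. Other T-lineage markers were not all unchanged: TRAC, CD2, CD5, CD7 and CD28 were called lower and are described below.

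Lists of markers of other cell types differed widely in level, and none of their tested members was called. Summed myeloid markers came to 2.5 to 3.44 CPM with sh-SH2D1A and 3.02 to 3.51 CPM with sh-NC over 12 genes, with CSF3R and FCGR3A at 0 in all 4 libraries. The 13 erythroid and megakaryocyte markers summed to 21.3 to 25.4 CPM with sh-SH2D1A and 21.2 to 23 CPM with sh-NC, and HBB, HBG1, HBZ, PF4 and GP9 were among those at 0 in all 4. The 10 B cell markers summed to 75.5 to 86.7 CPM with sh-SH2D1A and 83.9 to 97.5 CPM with sh-NC, of which CD79A gave 72.1%. Of the 12 epithelial and packaging cell markers, EPCAM, KRT19, CDH1 and PAX2 were at 0 in all 4. That list summed to 560 to 568 CPM with sh-SH2D1A and 615 to 643 CPM with sh-NC, and 96.7% of this was vimentin (VIM), which T cells also express. The part of these markers in the results was not tested.

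The hairpin's target was lower in both knockdown libraries. SH2D1A, on chromosome X from 124227868 to 124373197 (plus strand) of hg38, had 59.4 and 64.4 CPM with sh-SH2D1A, against 173 and 201 CPM with sh-NC, a log2 change of -1.60 ± 0.10 (adjusted p = 6.3e-05). CHI3L2, a chitinase-like protein without chitinase activity that the series names in its title, lies at chromosome 1 from 111200771 to 111243440 (plus strand). It had 717 and 708 CPM with sh-SH2D1A, against 1793 and 1829.7 CPM with sh-NC, a log2 change of -1.35 ± 0.07 (adjusted p = 2.52e-05). DENND2D, which overlaps CHI3L2 on the opposite strand, changed by -0.54 ± 0.12 and was called too. STAG2, whose annotation overlaps SH2D1A on the same strand, changed by -0.23 ± 0.09 and was not called. Counting is not stated to use strand, so reads of a gene and an overlapping neighbour cannot be told apart. Without 1 library the DENND2D call was lost in 3 of 4 fits, at adjusted p = 0.067 without sh-NC replicate 1, 0.0814 without sh-NC replicate 2 and 0.148 without sh-SH2D1A replicate 1.

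Across the transcriptome 721 of 19079 tested genes passed (3.78%). Of these, 240 were higher (1.26%) and 481 lower (2.52%) with sh-SH2D1A. Most were modest: 558 of the calls, or 77.4%, were under 2-fold, the median absolute change of a call was 0.58 on the log2 scale, and the smallest was 0.31. At least 2-fold, 79 genes were higher (0.414% of tested genes) and 84 lower (0.44%). Lower calls had a median level of 58.0 CPM and higher calls one of 28.5 CPM, against 15.8 CPM for all tested genes. The share called rose with level, from 0.531% under 1 CPM to 4.71% between 10 and 100 CPM. It was 7.43% in the range next above 100 CPM and 7.69% in the highest range. Counts of calls in the gene lists below were not matched for level, so lists of well-expressed genes would hold more calls than all tested genes. Each such count is to be read beside the shares over all tested genes, 1.26% higher and 2.52% lower. In 48.7% of the tested genes both libraries of 1 arm lay above both of the other, so that property alone sets a gene little apart. Where it is given below for called genes it describes their values and adds no evidence to the call. With no filter on low counts 34173 genes were tested and edgeR called 0, with 3533 at an unadjusted p under 0.05, while the DESeq2 Wald test on the filtered genes called 1054.

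**Figure D1:**
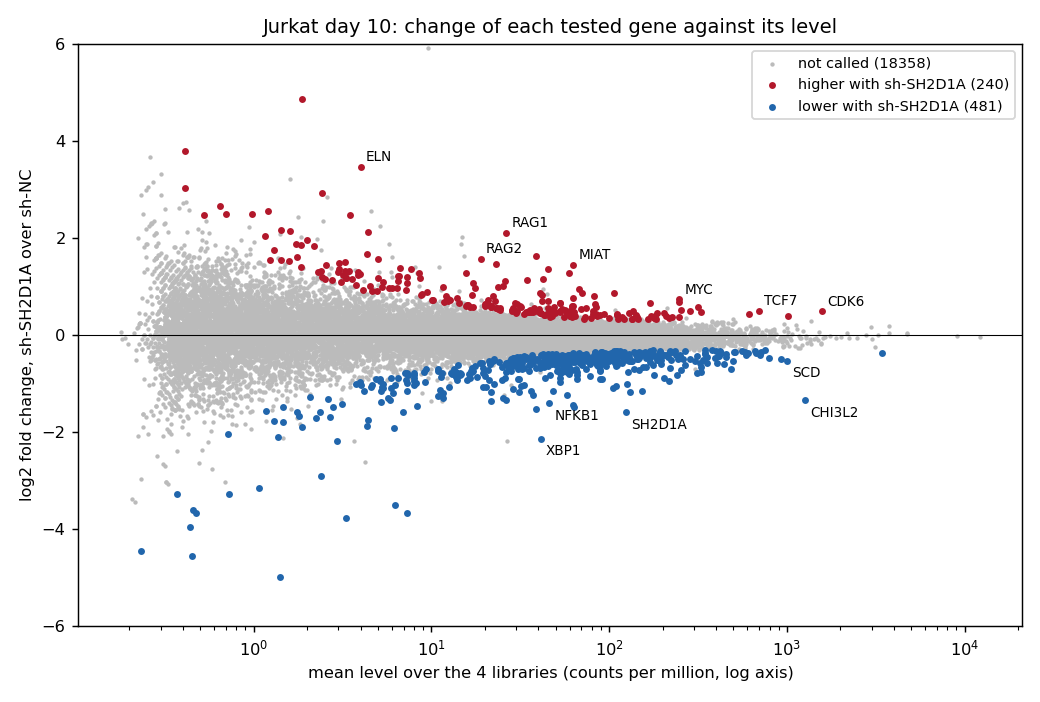
Log2 fold change of each of 19079 tested genes (sh-SH2D1A over sh-NC, y axis) against its mean level in CPM (x axis, log scale), with 240 genes called higher in red and 481 called lower in blue. Most called genes lie within 1 of 0 on the y axis at high levels, where CHI3L2 and SH2D1A stand lowest, and 5 genes outside the plotted range of 6 are not drawn.

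Among the 500 most abundant protein-coding genes, ranked by CPM per kilobase of exon, 8 were higher and 35 lower. So 8.6% of the 500 were called, near the 7.43% of all tested genes in the range next above 100 CPM. The median change of the 500 was -0.05. The lower count was 19 without sh-NC replicate 1, and with each other library left out it was between 24 and 29. The largest rise among these 500 belonged to MYC, the growth-promoting transcription factor, with 315 and 304 CPM with sh-SH2D1A, against 189 and 182 CPM with sh-NC, a log2 change of 0.74 ± 0.08 (adjusted p = 0.00076). TCF7, which encodes the T-lineage factor TCF-1, had 801 and 828 CPM with sh-SH2D1A, against 586 and 565 CPM with sh-NC, a log2 change of 0.50 ± 0.07. MAT2A, which makes S-adenosylmethionine, had 710.1 and 705 CPM with sh-SH2D1A, against 506 and 543 CPM with sh-NC (0.43 ± 0.07). HSP90AB1, a cytosolic chaperone, changed by 0.40 ± 0.07, and CCT3, a subunit of the chaperonin that folds actin and tubulin, by 0.48 ± 0.08. For each of these 5 genes both knockdown libraries lay above both controls.

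CDK6, a kinase that drives entry into the cell cycle with D-type cyclins, was among the highest transcripts, with 1702 and 1992 CPM with sh-SH2D1A, against 1220.0 and 1401 CPM with sh-NC, a log2 change of 0.50 ± 0.09. Without sh-NC replicate 1 its call was lost (adjusted p = 0.0655). Its partner CCND3 moved the other way, with 641 and 618 CPM with sh-SH2D1A, against 847 and 765 CPM with sh-NC, a log2 change of -0.36 ± 0.08, and this call too was lost without sh-NC replicate 1 (adjusted p = 0.126).

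The abundant genes that fell were led, after CHI3L2, by IL32, a cytokine of lymphocytes, with 161 and 136 CPM with sh-SH2D1A, against 311 and 262 CPM with sh-NC (-0.95 ± 0.11). LMNB1, which encodes lamin B1 of the nuclear lamina, had 247 and 245 CPM with sh-SH2D1A, against 409 and 419 CPM with sh-NC (-0.75 ± 0.07), and TOP2B, a DNA topoisomerase, had 252 and 259 CPM with sh-SH2D1A, against 379 and 431 CPM with sh-NC (-0.67 ± 0.08). NEAT1, an abundant nuclear long non-coding RNA, was higher, with 323 and 288 CPM with sh-SH2D1A, against 193 and 191 CPM with sh-NC (0.67 ± 0.08). TOP2B and NEAT1 were added once their values were known. The regulators of the actin cytoskeleton that follow were picked in the same way, so no count is given for them. CORO1A, a coronin that binds actin filaments, had 699.8 and 641 CPM with sh-SH2D1A, against 977 and 878 CPM with sh-NC (-0.47 ± 0.08). RAC2, a small GTPase of blood cells, had 113 and 106 CPM with sh-SH2D1A, against 163 and 154 CPM with sh-NC (-0.53 ± 0.08), and CYFIP2, a subunit of the WAVE complex that acts downstream of Rac, had 298 and 348 CPM with sh-SH2D1A, against 484 and 481 CPM with sh-NC (-0.58 ± 0.09). SPTBN1, a spectrin, changed by -0.50 ± 0.08, IQGAP1, a scaffold that binds actin, by -0.51 ± 0.09, and ARHGAP45, a GTPase activator, by -0.57 ± 0.09. All 6 were lower in both knockdown libraries than in either control, which their choice by value makes likely.

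Ribosomal and respiratory genes held few calls. Of 37 complex I subunits 1 was lower (median 0.03), NDUFA1, with 12.3 and 9.74 CPM with sh-SH2D1A, against 23.4 and 18.3 CPM with sh-NC (-0.92 ± 0.17; adjusted p = 0.0178), and the call was lost without sh-NC replicate 1. Of 77 mitochondrial ribosomal protein genes 2 were higher (median 0.09), MRPL42, with 0.44 ± 0.10, and MRPL24, with 0.50 ± 0.12, and 1 was higher without sh-NC replicate 1, sh-NC replicate 2 or sh-SH2D1A replicate 1. None of the 83 cytosolic ribosomal protein genes was called (median -0.07), nor any of the 13 mitochondrially encoded genes (median 0.05), the 37 subunits of complexes III and IV and the ATP synthase (median 0.02) or the 34 aminoacyl-tRNA synthetases (median 0.05). By edgeR at an unadjusted p under 0.05, 5 of the ribosomal genes, 5 of the mitochondrially encoded, 6 of the complex subunits and 6 of the synthetases passed, and the DESeq2 Wald test called 2, 1, 0 and 0 of them. Without sh-NC replicate 2, 1 mitochondrially encoded gene and 2 synthetases were higher.

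Calls among surface protein genes were mostly lower. Of 58 tested genes with a CD-numbered symbol, 14 were lower and 1 was higher, with a median change of -0.32. Of all tested genes, not matched for level, 2.52% were lower and 1.26% higher. One of the 14, CD2AP, is an intracellular adaptor that shares only the prefix. CD38, an ectoenzyme that consumes NAD, had 32.8 and 38.2 CPM with sh-SH2D1A, against 67.9 and 71.9 CPM with sh-NC (-0.98 ± 0.10; adjusted p = 0.000778). CD69, an early activation marker that retains cells in tissue, had 22.7 and 20.6 CPM with sh-SH2D1A, against 41.2 and 39.8 CPM with sh-NC (-0.90 ± 0.11). CD2, the adhesion receptor for CD58, had 65.98 and 66.8 CPM with sh-SH2D1A, against 111 and 111 CPM with sh-NC (-0.74 ± 0.08), and CD5, a brake on T cell receptor signalling, had 94.3 and 94.9 CPM with sh-SH2D1A, against 146 and 135 CPM with sh-NC (-0.57 ± 0.08). CD70, the ligand of the costimulatory receptor CD27, had 6.38 and 7.67 CPM with sh-SH2D1A, against 14.7 and 16.1 CPM with sh-NC (-1.13 ± 0.17). In all 5 the arms stood apart. The lower count was 10 without sh-NC replicate 1, and without each other library it was 13, while the higher count was 2 without sh-NC replicate 1 or sh-SH2D1A replicate 2 and 0 without either other library.

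SLAM family genes, which include receptors that SAP binds, were lower in part. Of 7 genes in this list, which also holds the ligand CD48, 5 were tested, 3 were lower and the median change was -0.52. CD84 had 63.7 and 72.6 CPM with sh-SH2D1A, against 101 and 107 CPM with sh-NC (-0.61 ± 0.09; adjusted p = 0.00581), SLAMF6 had 12.7 and 13.5 CPM with sh-SH2D1A, against 20.9 and 21.1 CPM with sh-NC (-0.68 ± 0.13; adjusted p = 0.0196), and LY9 had 17.6 and 19.6 CPM with sh-SH2D1A, against 26.3 and 26.3 CPM with sh-NC (-0.50 ± 0.12; adjusted p = 0.0494). CD48, the ligand of the receptor encoded by CD244, had 37.9 and 35.5 CPM with sh-SH2D1A, against 46.1 and 47.9 CPM with sh-NC (-0.36 ± 0.10) and CD244 itself had 3.08 and 3.62 CPM with sh-SH2D1A, against 5.10 and 4.47 CPM with sh-NC (-0.52 ± 0.23), and neither passed. SLAMF1 and SLAMF7 were too low to be tested. The calls of SLAMF6 and LY9 were lost without sh-NC replicate 1 (adjusted p = 0.0522 and 0.106), without sh-NC replicate 2 (0.0508 and 0.099) and without sh-SH2D1A replicate 1 (0.0608 and 0.248), while CD84 was called in each.

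Partners downstream of these receptors did not move together. INPP5D, which encodes SHIP1, had 84.8 and 88.6 CPM with sh-SH2D1A, against 127 and 121 CPM with sh-NC (-0.52 ± 0.08; adjusted p = 0.00653). FYN, the kinase that SAP recruits, had 97.8 and 87.8 CPM with sh-SH2D1A, against 94.8 and 96.5 CPM with sh-NC (-0.04 ± 0.09), and PTPN11, which encodes the phosphatase SHP-2, had 246 and 274 CPM with sh-SH2D1A, against 249.9 and 277 CPM with sh-NC (-0.02 ± 0.09), neither of them called. Both were added once their values were known. Of 32 tested proximal T cell receptor kinases and adaptors, 4 were lower, SH2D1A included, and none was higher (median -0.10). UBASH3B, a phosphatase that acts on the receptor's kinases, had 36.9 and 42.3 CPM with sh-SH2D1A, against 62.7 and 59.3 CPM with sh-NC (-0.62 ± 0.10). PAG1, the membrane adaptor that anchors CSK, had 11.96 and 13.2 CPM with sh-SH2D1A, against 21.98 and 20.6 CPM with sh-NC (-0.76 ± 0.14), a call lost without sh-NC replicate 1 (adjusted p = 0.0512). Without that library 2 of the list were called. ZAP70 (692 and 665 CPM with sh-SH2D1A, against 723 and 650.1 CPM with sh-NC) and PLCG1 (281 and 305 CPM with sh-SH2D1A, against 310.4 and 295 CPM with sh-NC) did not pass.

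Chains of the T cell receptor moved in both directions. PTCRA, the pre-T cell receptor alpha chain, had 62.6 and 55.1 CPM with sh-SH2D1A, against 28.9 and 23.9 CPM with sh-NC (1.16 ± 0.12; adjusted p = 0.00076). TRAC, the constant region of the mature alpha chain, had 39.4 and 41.2 CPM with sh-SH2D1A, against 68.5 and 64.9 CPM with sh-NC (-0.73 ± 0.09; adjusted p = 0.00212). TRAT1, an adaptor that associates with the receptor, had 27.6 and 35.3 CPM with sh-SH2D1A, against 14.2 and 17.6 CPM with sh-NC (0.99 ± 0.15). Each of these 3 separated the arms, 2 of them upward and TRAC downward, and they were the 3 called of 9 tested members. The lower count was 3 without sh-SH2D1A replicate 1 and 2 without sh-NC replicate 2 or sh-SH2D1A replicate 2, and the higher count was 2 or 3 throughout. TRBC1 had 338 and 169 CPM with sh-SH2D1A, against 191 and 153 CPM with sh-NC, so that sh-SH2D1A replicate 1 alone stood high and the arms overlapped (0.56 ± 0.24, not called). CD3D (287 and 247 CPM with sh-SH2D1A, against 344.8 and 318 CPM with sh-NC) and CD3G (218 and 221 CPM with sh-SH2D1A, against 179 and 185 CPM with sh-NC) did not pass, on opposite sides of 0.

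Of 28 tested adhesion receptors 5 were lower and 2 higher (median -0.08), and the higher count was 0 without sh-NC replicate 2 and 1 without each other library. Called members made up 25% of the list, against 3.78% of all tested genes, not matched for level. ITGAL, the alpha chain of the integrin LFA-1, had 169.6 and 177 CPM with sh-SH2D1A, against 313 and 301 CPM with sh-NC (-0.82 ± 0.08; adjusted p = 0.000404). PECAM1, an adhesion protein of leukocytes and endothelium, had 69.9 and 78.7 CPM with sh-SH2D1A, against 103 and 111 CPM with sh-NC (-0.53 ± 0.09). DSCAML1, an adhesion protein of the immunoglobulin superfamily best known in neurons, was rarer, with 1.09 and 1.05 CPM with sh-SH2D1A, against 4.65 and 5.03 CPM with sh-NC (-2.17 ± 0.26). ITGA4 (849 and 940.1 CPM with sh-SH2D1A, against 924 and 983 CPM with sh-NC) and CD47 (417 and 443 CPM with sh-SH2D1A, against 403 and 452 CPM with sh-NC) did not pass, and their arms overlapped. CD99 was the CD-numbered gene that was higher, with 295 and 267 CPM with sh-SH2D1A, against 224 and 209 CPM with sh-NC (0.38 ± 0.08), and its call was lost without sh-NC replicate 2 (adjusted p = 0.111) and without sh-SH2D1A replicate 1 (0.187).

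Of 20 tested coreceptors and costimulatory or inhibitory receptors 4 were lower, namely CD2, CD5, CD7 and CD28, and none was higher. Without sh-NC replicate 1 the counts were 3 lower and 2 higher. CD28, the main costimulatory receptor, had 141 and 147 CPM with sh-SH2D1A, against 187 and 204 CPM with sh-NC (-0.44 ± 0.08), a call lost without sh-SH2D1A replicate 1 (adjusted p = 0.0515). CD7 had 41.95 and 41.1 CPM with sh-SH2D1A, against 66.5 and 52.8 CPM with sh-NC (-0.52 ± 0.12), a call lost without sh-NC replicate 1 (adjusted p = 0.126). CD226 had 52.99 and 55.3 CPM with sh-SH2D1A, against 69.7 and 19.1 CPM with sh-NC: the control libraries differed from each other more than either did from the knockdown, and it was not called.

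Growth factor receptors included rises. KIT, the receptor for stem cell factor, had 22.4 and 24.4 CPM with sh-SH2D1A, against 11.4 and 10.9 CPM with sh-NC (1.07 ± 0.14; adjusted p = 0.00231). FLT3, a receptor of blood progenitors, was rare and higher, with 2.47 and 2.87 CPM with sh-SH2D1A, against 0.965 and 1.05 CPM with sh-NC (1.40 ± 0.31), but missed the threshold without sh-NC replicate 1 (adjusted p = 0.0867), sh-NC replicate 2 (0.0607) or sh-SH2D1A replicate 2 (0.0598). IL9R, the interleukin 9 receptor, fell, with 19.1 and 19.9 CPM with sh-SH2D1A, against 33.9 and 32.6 CPM with sh-NC (-0.77 ± 0.11). These were the 3 called of 27 tested cytokine and growth factor receptors. With 1 library left out the list held 1 to 3 higher and 1 to 4 lower, the 3 and the 4 without sh-SH2D1A replicate 1. TNFRSF21, a death receptor, was higher, with 51.6 and 52.3 CPM with sh-SH2D1A, against 30.9 and 33.3 CPM with sh-NC (0.70 ± 0.10). It was the 1 higher of 11 tested genes of death and TNF receptors and ligands (median -0.21). The 2 lower were CD70 and TNFSF10, the latter with -0.70 ± 0.17. The chemokine receptor CXCR4 stayed within its spread, with 278 and 274 CPM with sh-SH2D1A, against 281 and 285 CPM with sh-NC (-0.03 ± 0.07).

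**Figure D2:**
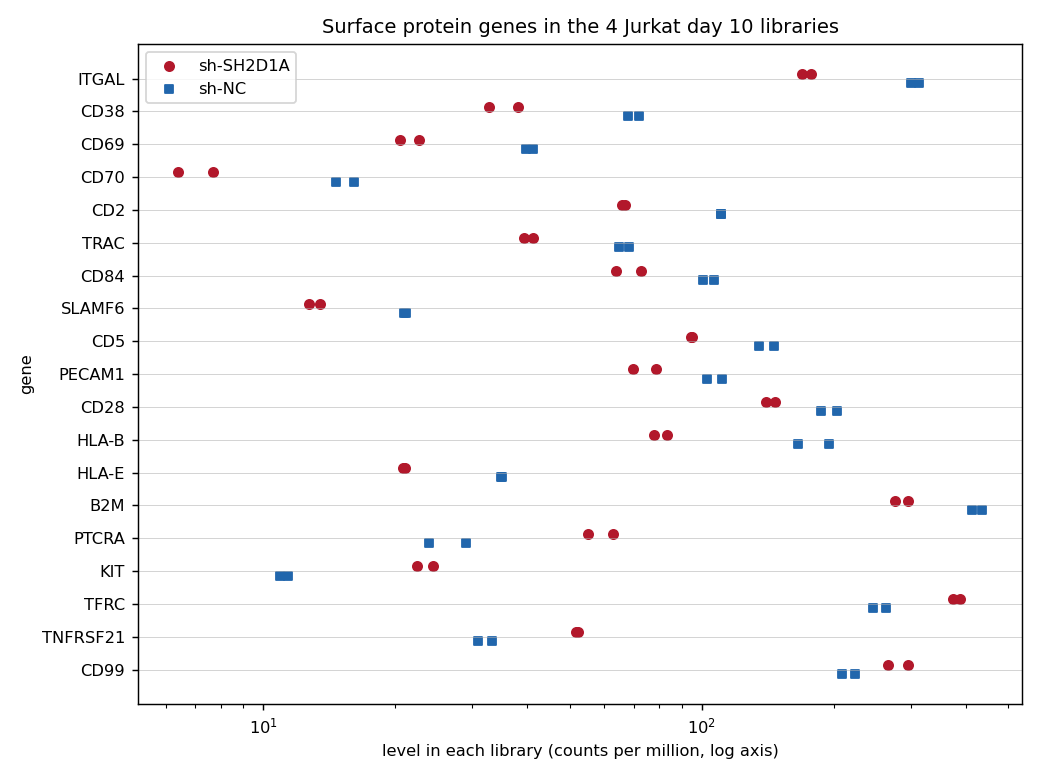
Level in CPM (x axis, log scale) of 19 surface protein genes (rows) in each library, with sh-SH2D1A as red circles above sh-NC as blue squares. The top 14 genes, ITGAL to B2M, are lower in both sh-SH2D1A libraries, and the bottom 5, PTCRA to CD99, are higher in both.

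Many HLA class I genes were lower. Of the tested genes of class I and peptide loading 39.1% were called, against 3.78% of all tested genes, not matched for level. HLA class I molecules carry peptides to the cell surface for recognition by CD8 T cells, with beta-2 microglobulin (B2M) as their invariant chain. Of 23 tested genes of class I and peptide loading 9 were lower and none higher (median -0.23), and between 6 and 7 were lower with 1 library left out, 6 of them without sh-NC replicate 1. Without sh-NC replicate 2, 1 member was higher. HLA-B, at chromosome 6 from 31269491 to 31357188 (minus strand), had 83.2 and 77.96 CPM with sh-SH2D1A, against 196 and 166 CPM with sh-NC (-1.17 ± 0.10; adjusted p = 0.00021). HLA-E had 20.8 and 21.1 CPM with sh-SH2D1A, against 34.9 and 35.1 CPM with sh-NC (-0.74 ± 0.11). These genes resemble each other closely, and how reads shared between them were counted is not given, so their single values are uncertain. B2M, which has no such near copy in the list, had 295 and 276 CPM with sh-SH2D1A, against 415 and 437 CPM with sh-NC (-0.58 ± 0.08; adjusted p = 0.00315). NLRC5, the transcriptional activator of class I genes, had 38.8 and 40.8 CPM with sh-SH2D1A, against 72.9 and 62.2 CPM with sh-NC (-0.76 ± 0.10). Both knockdown libraries were below both controls for all 4. The chaperones of the loading complex CALR, with 649 and 606 CPM with sh-SH2D1A, against 648 and 596 CPM with sh-NC, and CANX, with 366 and 379.9 CPM with sh-SH2D1A, against 384 and 405 CPM with sh-NC, did not pass.

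Promoters of this list were read from the RefSeq promoter table (GRCh38.p14, 250 bases before to 50 after the start), which matched 10552 of 13192 tested protein-coding genes. The core GAAANNGAA of the interferon-stimulated response element, on either strand, was present in 9 of 19 promoters of the list (47.4%), against 8.67% of all 10552. It was present in 11.9% of the 303 matched promoters of lower genes and in 6.8% of the 147 of higher genes. The B2M promoter (chr15:44711267-44711566, plus strand) is shown because B2M fell and its promoter holds 2 overlapping matches, in capitals, the first beginning 144 bases before the start.
B2M: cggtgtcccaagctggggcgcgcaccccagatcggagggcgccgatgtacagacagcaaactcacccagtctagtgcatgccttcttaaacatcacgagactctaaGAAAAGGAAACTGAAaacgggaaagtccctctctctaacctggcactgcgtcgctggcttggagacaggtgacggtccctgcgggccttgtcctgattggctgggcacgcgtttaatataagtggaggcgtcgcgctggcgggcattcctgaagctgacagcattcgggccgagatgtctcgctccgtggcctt

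Interferon response genes as a whole were lower in 3 of 31 tested members and higher in none (median -0.03), and in 5 without sh-SH2D1A replicate 2. With all 4 libraries 9.68% of the list was called, against 3.78% of all tested genes, not matched for level. TRIM22, an interferon-induced antiviral ligase, had 1.64 and 2.10 CPM with sh-SH2D1A, against 6.51 and 7.23 CPM with sh-NC (-1.88 ± 0.24; adjusted p = 0.00218), and OAS3, which senses double-stranded RNA, had 59.7 and 64.3 CPM with sh-SH2D1A, against 95.9 and 91.3 CPM with sh-NC (-0.59 ± 0.09). IFI16, a sensor of DNA, had 411 and 421 CPM with sh-SH2D1A, against 325 and 369 CPM with sh-NC (0.26 ± 0.08) and did not pass. Of the factors that act on interferon genes, IRF1 had 109 and 106 CPM with sh-SH2D1A, against 142 and 131 CPM with sh-NC (-0.35 ± 0.08; adjusted p = 0.0419) and lost its call without sh-NC replicate 1 (adjusted p = 0.138), sh-SH2D1A replicate 1 (0.105) or sh-SH2D1A replicate 2 (0.126). STAT5A, which transmits cytokine signals, had 131 and 121 CPM with sh-SH2D1A, against 206 and 191 CPM with sh-NC (-0.66 ± 0.08; adjusted p = 0.0023), while STAT3 had 208 and 222 CPM with sh-SH2D1A, against 213 and 210.1 CPM with sh-NC and STAT5B had 134 and 132 CPM with sh-SH2D1A, against 135 and 148 CPM with sh-NC, neither called.

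Transcription factors that define the T lineage were mostly not called, with 6.98% of the list called against 3.78% of all tested genes, not matched for level. Of 43 tested T lineage factors 2 were higher, TCF7 and ETS2, and 1 was lower, ZBTB16, with a median change of 0.01, and 2 were lower without sh-SH2D1A replicate 1. ETS2 had 150.5 and 148 CPM with sh-SH2D1A, against 111 and 108 CPM with sh-NC (0.45 ± 0.08). ZBTB16, the factor of innate-like T cells, was rare, with 0.866 and 0.879 CPM with sh-SH2D1A, against 2.79 and 2.45 CPM with sh-NC (-1.58 ± 0.32), and its call was lost without sh-NC replicate 1 (adjusted p = 0.0703). SOX4 (1274 and 1266 CPM with sh-SH2D1A, against 1237 and 1166 CPM with sh-NC), LEF1 (1035 and 1057 CPM with sh-SH2D1A, against 947 and 955 CPM with sh-NC) and RUNX1 (658 and 733 CPM with sh-SH2D1A, against 619 and 633 CPM with sh-NC) did not pass. Among 23 tested oncogenic and progenitor factors of T-ALL 2 were lower and none higher (median 0.02). The counts were 1 lower without sh-NC replicate 1, 3 lower without sh-NC replicate 2, and 1 lower and 1 higher without sh-SH2D1A replicate 1. MEF2D had 36.8 and 39.1 CPM with sh-SH2D1A, against 63.5 and 63.3 CPM with sh-NC (-0.74 ± 0.09; adjusted p = 0.00196). NOTCH1, the receptor activated in much of T-ALL, had 287 and 309 CPM with sh-SH2D1A, against 409.9 and 376 CPM with sh-NC (-0.40 ± 0.08), a call lost without sh-NC replicate 1 (adjusted p = 0.0881) and without sh-SH2D1A replicate 1 (0.0945). DTX1, a NOTCH target named after its values had been seen, had 170.1 and 167 CPM with sh-SH2D1A, against 281 and 258 CPM with sh-NC (-0.68 ± 0.08; adjusted p = 0.00149), whereas HES4, another NOTCH target, had 249 and 208 CPM with sh-SH2D1A, against 253 and 195 CPM with sh-NC (0.03 ± 0.12) and overlapped between arms. None of the 24 HOX genes tested was called by edgeR, with 2 at an unadjusted p under 0.05 and 0 called by the DESeq2 Wald test.

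Factors downstream of antigen and growth factor signals were lower in part. NFKB1, the p105 and p50 subunit of NF-kB, had 25.2 and 25.1 CPM with sh-SH2D1A, against 63.1 and 70.5 CPM with sh-NC (-1.41 ± 0.10; adjusted p = 9.47e-05). It was 1 of 2 lower genes among 18 tested NF-kB subunits and inhibitors (median -0.19). The other, BCL3, was rare, with 0.962 and 0.744 CPM with sh-SH2D1A, against 2.86 and 2.62 CPM with sh-NC (-1.68 ± 0.32), and was lost without sh-NC replicate 1 (adjusted p = 0.0515). RELA, the partner of p50, had 84.9 and 87.4 CPM with sh-SH2D1A, against 100.4 and 88.1 CPM with sh-NC (-0.13 ± 0.09), and TNFAIP3, an NF-kB-induced inhibitor, had 119 and 126 CPM with sh-SH2D1A, against 151 and 149 CPM with sh-NC (-0.29 ± 0.08), neither called. A kB site, GGGANTTTC on either strand, was present in 8 of 16 promoters of this list (50%), in 1.56% of all 10552 promoters, in 0.68% of those of higher genes and in 3.3% of those of lower genes. The NFKB1 promoter (chr4:102501109-102501408, plus strand; 1 of 2 listed for the gene) is shown as that of the called member with a match, which is in capitals and begins 49 bases before the start.
NFKB1: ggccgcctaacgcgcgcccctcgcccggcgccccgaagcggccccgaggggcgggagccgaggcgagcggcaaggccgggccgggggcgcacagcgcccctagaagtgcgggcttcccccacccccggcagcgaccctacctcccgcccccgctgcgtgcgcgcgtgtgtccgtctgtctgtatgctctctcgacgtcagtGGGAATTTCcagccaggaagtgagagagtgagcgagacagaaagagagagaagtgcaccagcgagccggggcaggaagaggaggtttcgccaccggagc

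EGR1, an immediate early factor, had 39.5 and 37.7 CPM with sh-SH2D1A, against 65.9 and 67.9 CPM with sh-NC (-0.79 ± 0.09; adjusted p = 0.00123), and IER2, another immediate early gene, had 164 and 147 CPM with sh-SH2D1A, against 234 and 208 CPM with sh-NC (-0.51 ± 0.09). Both were lower in each knockdown library, and they were the 2 called of 20 tested immediate early factors (median -0.27). ETV5, an ETS factor induced by ERK signalling, had 11.5 and 12.8 CPM with sh-SH2D1A, against 30.5 and 31.9 CPM with sh-NC (-1.36 ± 0.13; adjusted p = 0.000404), and SPRED1, a feedback inhibitor of RAS, had 19.1 and 19.7 CPM with sh-SH2D1A, against 29.6 and 31.9 CPM with sh-NC (-0.66 ± 0.11). SPRED2, its relative, had 59.1 and 65.4 CPM with sh-SH2D1A, against 88.5 and 88.9 CPM with sh-NC (-0.51 ± 0.09) and lost its call without sh-SH2D1A replicate 1 (adjusted p = 0.052). These 3 were the called members of 19 tested, with a median of -0.17, while 6 were lower without sh-SH2D1A replicate 2 and 2 without sh-SH2D1A replicate 1, and ELK1 (63.8 and 62.3 CPM with sh-SH2D1A, against 74.3 and 67.4 CPM with sh-NC) did not pass. A pair of genes was added once the values were known, with no list of the cascade counted. MAP2K2, which encodes the kinase MEK2, had 98.5 and 90.9 CPM with sh-SH2D1A, against 228 and 194 CPM with sh-NC (-1.15 ± 0.10; adjusted p = 0.00021), and NRAS had 60.5 and 63.4 CPM with sh-SH2D1A, against 104 and 127 CPM with sh-NC (-0.90 ± 0.10; adjusted p = 0.00132). The 19 tested dual-specificity phosphatases, which include feedback inhibitors of ERK, held no call by edgeR, with 4 at an unadjusted p under 0.05 and 0 called by the DESeq2 Wald test, and 1 was lower without sh-SH2D1A replicate 2.

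Stress and metabolic factors included a large fall. XBP1, which drives the unfolded protein response and secretory cell fates, had 19.2 and 11.2 CPM with sh-SH2D1A, against 68.6 and 65.8 CPM with sh-NC (-2.14 ± 0.19; adjusted p = 0.000315), and the knockdown libraries differed from each other by more than the controls did. EPAS1, which encodes the hypoxia-inducible factor HIF-2 alpha, had 5.68 and 7.20 CPM with sh-SH2D1A, against 15.7 and 15.2 CPM with sh-NC (-1.27 ± 0.18). HIF1A had 69.2 and 74.7 CPM with sh-SH2D1A, against 91.8 and 101 CPM with sh-NC (-0.42 ± 0.09), a call lost without sh-NC replicate 2 (adjusted p = 0.0824) and without sh-SH2D1A replicate 1 (0.131). SREBF2, the master factor of sterol synthesis, had 477 and 499.8 CPM with sh-SH2D1A, against 606 and 577 CPM with sh-NC (-0.28 ± 0.07; adjusted p = 0.0711) and ATF4, of the amino acid response, had 528 and 492 CPM with sh-SH2D1A, against 503 and 489 CPM with sh-NC (0.04 ± 0.07), neither called. In all, 4 of 28 tested members of this list were lower and none higher (median -0.05). Without sh-NC replicate 2 or without sh-SH2D1A replicate 1, 2 members were lower. Chaperones and other unfolded protein response genes gave 3 lower and 1 higher of 25, led by DNAJB1, a cochaperone of HSP70, with 105 and 99.1 CPM with sh-SH2D1A, against 140.3 and 139 CPM with sh-NC (-0.45 ± 0.08).

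**Figure D3:**
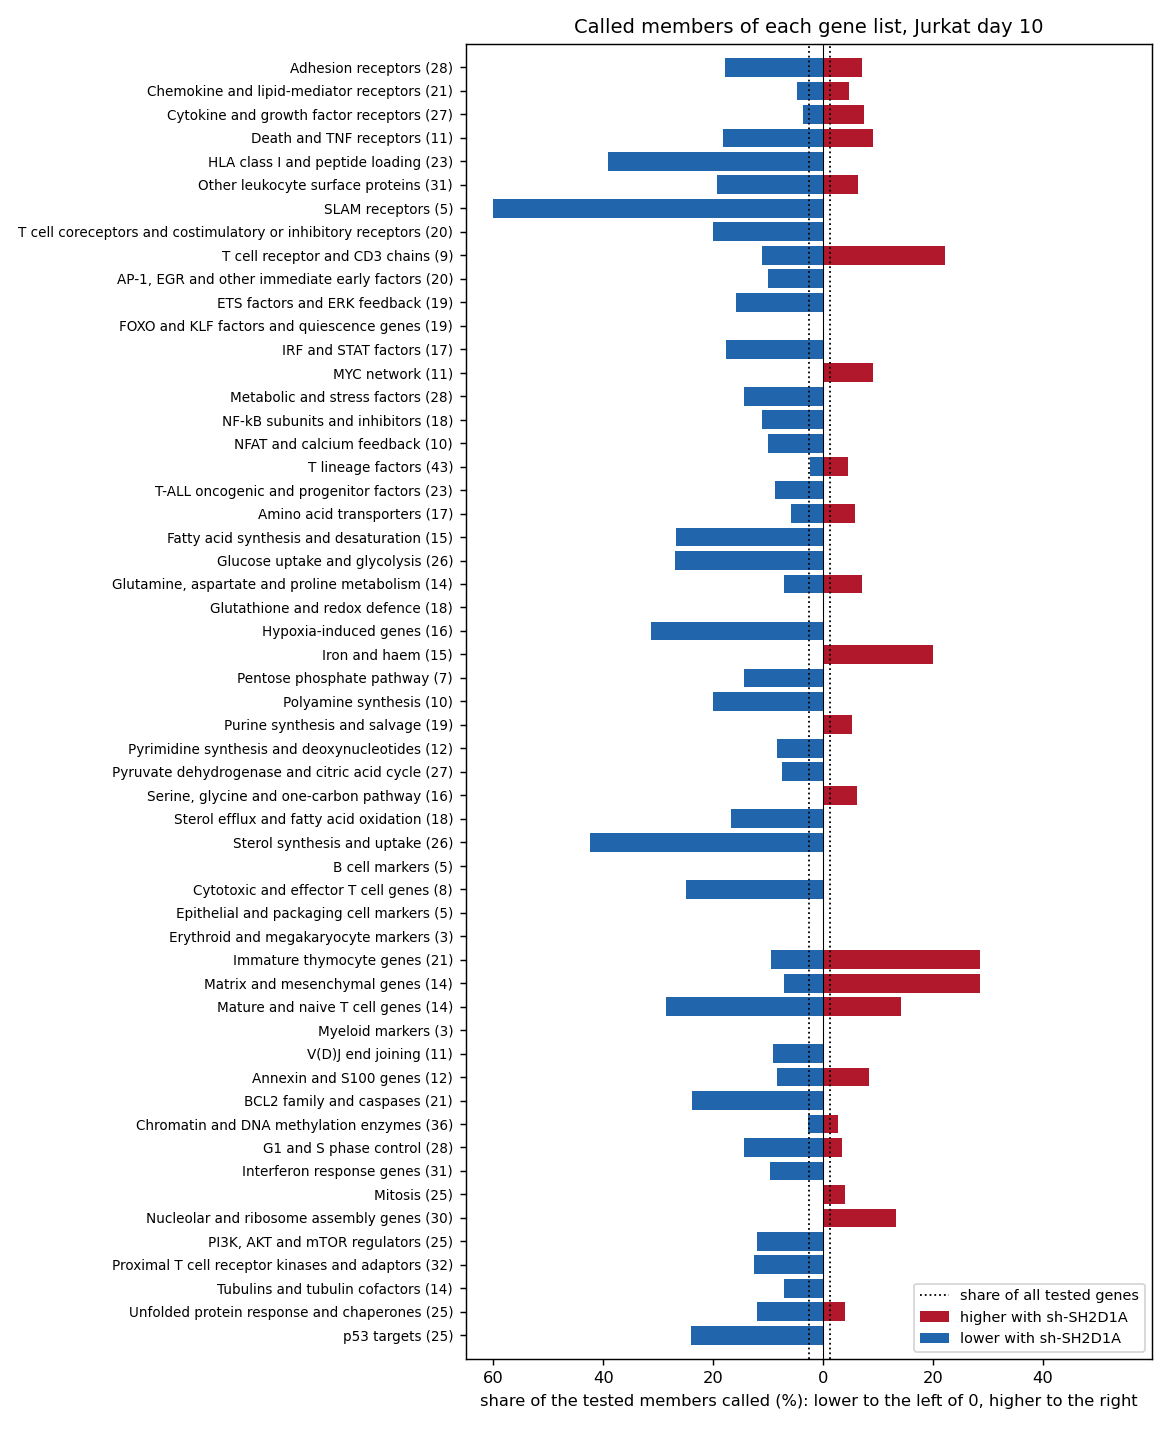
Share of the tested members of each of 55 gene lists (rows, with the number tested in brackets) called lower (blue, to the left) or higher (red, to the right) with sh-SH2D1A, in percent on the x axis. The dotted lines mark 2.52% lower and 1.26% higher, the shares over all tested genes, which are not matched to the lists for level. The sterol, HLA class I and SLAM receptor lists reach furthest to the left.

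Calls among lipid synthesis genes were all lower. Of 26 tested genes of sterol synthesis and uptake 11 were lower and none higher, and 24 had a change below 0 (median -0.36). The share called was 42.3%, against 3.78% of all tested genes, not matched for level. Between 8 (without sh-SH2D1A replicate 2) and 11 were lower with 1 library left out. HMGCS1, the first committed step towards mevalonate, had 246 and 251 CPM with sh-SH2D1A, against 334 and 387 CPM with sh-NC (-0.54 ± 0.09; adjusted p = 0.00841). DHCR7, the last step to cholesterol, had 98.5 and 102 CPM with sh-SH2D1A, against 143 and 140.3 CPM with sh-NC (-0.50 ± 0.08), and LSS, which closes the sterol rings, had 93.9 and 88.2 CPM with sh-SH2D1A, against 127 and 127 CPM with sh-NC (-0.48 ± 0.08). INSIG1, the sterol-regulated anchor of the SREBP pathway, had 505 and 504 CPM with sh-SH2D1A, against 676 and 673 CPM with sh-NC (-0.42 ± 0.07). The arms did not overlap for any of these 4. The letters TCACNCCAC of the sterol regulatory element were in none of the 20 matched promoters of this list and in 1.48% of all 10552. They were in 0.68% of the promoters of higher genes and in 2.97% of those of lower genes. Letters this rare would seldom appear among 20 promoters, so their absence cannot tell whether these genes have the element.

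Fatty acid synthesis and desaturation genes were lower in 4 of 15 tested members, with none higher (median -0.14), while without sh-NC replicate 1 the counts were 3 lower and 1 higher. SCD, the stearoyl-CoA desaturase, was among the most abundant of all, with 788 and 844 CPM with sh-SH2D1A, against 1147 and 1211 CPM with sh-NC (-0.53 ± 0.07; adjusted p = 0.00376). FADS2, the delta-6 desaturase, had 371 and 374 CPM with sh-SH2D1A, against 622 and 584 CPM with sh-NC (-0.69 ± 0.07; adjusted p = 0.000892), while its neighbour FADS1 had 189 and 209 CPM with sh-SH2D1A, against 213 and 224 CPM with sh-NC (-0.14 ± 0.08, not called). ACSS2, which makes acetyl-CoA from acetate, had 13.3 and 12.5 CPM with sh-SH2D1A, against 21.05 and 22.3 CPM with sh-NC (-0.75 ± 0.13). FASN, the fatty acid synthase, had 362 and 379 CPM with sh-SH2D1A, against 508 and 450.0 CPM with sh-NC (-0.37 ± 0.08), a call lost without sh-NC replicate 1 (adjusted p = 0.145) and without sh-SH2D1A replicate 1 (0.104). On the side of breakdown, CPT1A, which admits fatty acids to mitochondria, was lower as well, with 85.3 and 89.2 CPM with sh-SH2D1A, against 129.6 and 129 CPM with sh-NC (-0.57 ± 0.08; adjusted p = 0.0036). It was 1 of 3 lower among 18 tested genes of sterol efflux and fatty acid oxidation (median -0.04), and 1 was lower without sh-SH2D1A replicate 1 and 2 without each other library, with 1 higher without sh-NC replicate 1.

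Glucose and hypoxia genes were lower in part. Of 26 tested genes of glucose uptake and glycolysis 7 were lower and none higher, and 21 had a change below 0 (median -0.24). The count was 4 without sh-NC replicate 1, and the DESeq2 Wald test called 16. ALDOC, the brain-type aldolase, had 34.9 and 33.9 CPM with sh-SH2D1A, against 82.1 and 79.8 CPM with sh-NC (-1.24 ± 0.09; adjusted p = 9.47e-05), and SLC2A3, the glucose transporter GLUT3, had 13.3 and 12.002 CPM with sh-SH2D1A, against 25.4 and 27.7 CPM with sh-NC (-1.07 ± 0.13; adjusted p = 0.00196). HK2, hexokinase 2, had 47.4 and 46.3 CPM with sh-SH2D1A, against 66.9 and 66.6 CPM with sh-NC (-0.51 ± 0.09), and PDK1, the kinase that shuts pyruvate dehydrogenase, had 76.6 and 72.4 CPM with sh-SH2D1A, against 101 and 117 CPM with sh-NC (-0.55 ± 0.09). These 4 were below both controls in both knockdown libraries. The most abundant enzymes lay slightly below the controls without a call: GAPDH had 2903 and 2813 CPM with sh-SH2D1A, against 3448 and 3355 CPM with sh-NC (-0.25 ± 0.06; adjusted p = 0.0613) and PKM had 904 and 859.7 CPM with sh-SH2D1A, against 1059.7 and 1014 CPM with sh-NC (-0.23 ± 0.07; adjusted p = 0.109).

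Of 16 tested hypoxia-induced genes 5 were lower and none higher (median -0.30), and 3 were lower without sh-NC replicate 2 or without sh-SH2D1A replicate 1. VEGFA, the vascular growth factor, had 41.3 and 41.2 CPM with sh-SH2D1A, against 68.7 and 66.4 CPM with sh-NC (-0.71 ± 0.09; adjusted p = 0.002). NDRG1, a stress-induced gene, had 43.6 and 41.5 CPM with sh-SH2D1A, against 64.4 and 63.98 CPM with sh-NC (-0.59 ± 0.09), and DDIT4, which restrains mTOR, had 62.9 and 60.5 CPM with sh-SH2D1A, against 92.3 and 85.5 CPM with sh-NC (-0.53 ± 0.09). All 3 were lower in both knockdown libraries. ERO1A (104 and 101 CPM with sh-SH2D1A, against 101 and 108 CPM with sh-NC) and KDM3A (90.2 and 92.1 CPM with sh-SH2D1A, against 89.95 and 101 CPM with sh-NC) overlapped between arms.

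The core ACGTG of the hypoxia response element, on either strand, was in 15 of 23 matched promoters of the glycolysis list (65.2%), in 31.9% of all 10552, in 38.8% of the 147 higher genes and in 35% of the 303 lower genes. It lies within the E-box CACGTG, which MYC also binds. The E-box was in 11 of 24 promoters of nucleolar genes (45.8%), in 12.7% of all, in 21.1% of the 147 higher genes and in 14.2% of the 303 lower genes. The ALDOC promoter (chr17:28576846-28577145, minus strand) is shown because ALDOC had the largest fall of the glycolysis list. Its matches are in capitals, and the run near the 5′ end is a full E-box.
ALDOC: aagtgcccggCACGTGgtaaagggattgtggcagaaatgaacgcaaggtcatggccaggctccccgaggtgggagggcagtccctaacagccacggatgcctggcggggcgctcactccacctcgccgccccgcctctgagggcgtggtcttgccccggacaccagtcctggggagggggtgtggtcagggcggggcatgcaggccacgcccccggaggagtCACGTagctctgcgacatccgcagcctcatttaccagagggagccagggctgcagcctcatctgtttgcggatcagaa

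**Figure D4:**
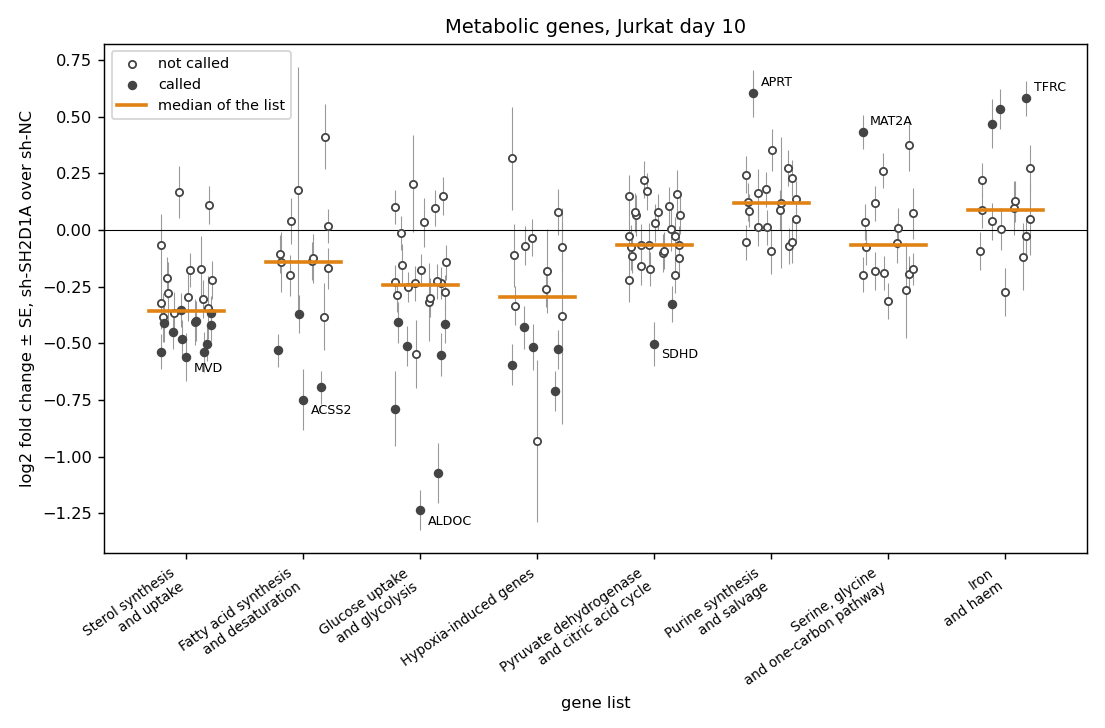
Log2 fold change ± SE (y axis, sh-SH2D1A over sh-NC) of every tested member of 8 metabolic lists (x axis), filled where called, with an orange bar at each median. The medians are -0.36 for sterol, -0.14 for fatty acid, -0.24 for glycolysis, -0.30 for hypoxia-induced, -0.07 for citric acid cycle, 0.12 for purine, -0.07 for one-carbon and 0.09 for iron and haem genes.

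Other metabolic lists held fewer calls than the lipid synthesis and glycolysis lists. The share called was 7.41% for the citric acid cycle and pyruvate dehydrogenase and 6.25% for one-carbon genes. It was 5.26% for purine genes and 11.8% for amino acid transporters. Over all tested genes it was 3.78%, not matched for level. Of 27 tested citric acid cycle and pyruvate dehydrogenase genes 2 were lower, SDHD with -0.50 ± 0.10 and OGDH with -0.33 ± 0.08, and neither was called without sh-NC replicate 1 (adjusted p = 0.0592 and 0.122) or without sh-SH2D1A replicate 2 (0.0595 and 0.103). OGDH also missed the threshold without sh-NC replicate 2 (0.0636) and without sh-SH2D1A replicate 1 (0.213). MAT2A was the 1 higher of 16 tested one-carbon genes (median -0.07), and PHGDH, the entry to serine synthesis, had 283 and 257 CPM with sh-SH2D1A, against 284 and 253 CPM with sh-NC (0.01 ± 0.09). APRT, which salvages adenine, had 80.96 and 70.4 CPM with sh-SH2D1A, against 52.6 and 47.1 CPM with sh-NC (0.60 ± 0.10; adjusted p = 0.0103) and was the 1 higher of 19 tested purine genes (median 0.12), with 2 higher without sh-NC replicate 1. None of 18 glutathione and redox genes was called by edgeR, with 6 at an unadjusted p under 0.05 and 3 called by the DESeq2 Wald test, and with 1 library left out 1 was higher without sh-NC replicate 1 or sh-SH2D1A replicate 2 and 1 lower without sh-NC replicate 2. Of 17 amino acid transporters 1 was higher and 1 lower. The lower one was SLC1A4, a neutral amino acid exchanger, with 77.4 and 80.8 CPM with sh-SH2D1A, against 111 and 112 CPM with sh-NC (-0.50 ± 0.08).

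Iron genes rose in 3 of 15 tested members and none fell (median 0.09). TFRC, the transferrin receptor that imports iron, had 375 and 388 CPM with sh-SH2D1A, against 246 and 264 CPM with sh-NC (0.58 ± 0.08; adjusted p = 0.0029). SLC40A1, ferroportin, which exports it, had 64.6 and 64.2 CPM with sh-SH2D1A, against 43.8 and 45.2 CPM with sh-NC (0.53 ± 0.09; adjusted p = 0.00926). Importer and exporter were thus higher together. UROS, an enzyme of haem synthesis, had 42.1 and 37.4 CPM with sh-SH2D1A, against 29.9 and 27.5 CPM with sh-NC (0.47 ± 0.11), a call lost without sh-NC replicate 2 (adjusted p = 0.108) and without sh-SH2D1A replicate 1 (0.24). The ferritin chain FTH1 had 1072 and 993 CPM with sh-SH2D1A, against 899 and 872 CPM with sh-NC (0.22 ± 0.07) and was not called.

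Genes of nucleolar function and ribosome assembly leaned higher. Of 30 tested, 26 had a change above 0 (median 0.23), 4 were called higher and none lower. No member was called without sh-NC replicate 1, 2 were without sh-NC replicate 2 and without sh-SH2D1A replicate 1, and 3 without sh-SH2D1A replicate 2. WDR12, needed for the large ribosomal subunit, had 64.3 and 70.2 CPM with sh-SH2D1A, against 45.8 and 49.96 CPM with sh-NC (0.49 ± 0.09), and GNL3, nucleostemin, had 103 and 101 CPM with sh-SH2D1A, against 72.7 and 80.4 CPM with sh-NC (0.41 ± 0.09). NPM1 (523 and 495 CPM with sh-SH2D1A, against 409 and 446 CPM with sh-NC) and NCL (727 and 711 CPM with sh-SH2D1A, against 635 and 659 CPM with sh-NC) lay above their controls without a call (0.25 ± 0.08 and 0.15 ± 0.07).

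Genes of immature thymocytes, at the stages where antigen receptor genes are rearranged, were higher in 6 of 21 tested members and lower in 2 (median -0.00). RAG1 and RAG2 encode the recombinase that cuts receptor genes, and their annotated spans overlap on chromosome 11, RAG1 at 36510709 to 36593156 (plus strand) and RAG2 at 36575574 to 36598279 (minus strand) of hg38. RAG1 had 39.3 and 46.05 CPM with sh-SH2D1A, against 8.75 and 10.97 CPM with sh-NC (2.11 ± 0.14; adjusted p = 9.11e-05). RAG2 had 26.05 and 30.6 CPM with sh-SH2D1A, against 8.68 and 10.4 CPM with sh-NC (1.57 ± 0.15; adjusted p = 0.000477). Both knockdown libraries lay far above both controls for each gene. Whether the counting used strand is not given in the sources used here, so the reads of their overlapping spans may not have been kept apart. ARPP21, an RNA-binding protein of cortical thymocytes, had 301 and 298 CPM with sh-SH2D1A, against 208 and 211 CPM with sh-NC (0.51 ± 0.07), and SH3TC1 had 90.7 and 87.4 CPM with sh-SH2D1A, against 48.5 and 44.1 CPM with sh-NC (0.94 ± 0.09). CD1E, an intracellular lipid-binding member of the CD1 family, was 1 of the 2 lower members (the 1 lower without sh-NC replicate 1), with 420.2 and 397 CPM with sh-SH2D1A, against 604 and 579 CPM with sh-NC (-0.53 ± 0.07; adjusted p = 0.00391). DNTT, which adds bases at receptor joints, had 329 and 319 CPM with sh-SH2D1A, against 390.2 and 387 CPM with sh-NC (-0.26 ± 0.07; adjusted p = 0.0851) and did not pass. Of 11 genes that join the cut ends, LIG4, the ligase, was lower, with 113 and 104 CPM with sh-SH2D1A, against 152 and 161 CPM with sh-NC (-0.53 ± 0.08), and the others were not called.

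Genes of mature and naive T cells split, with 2 of 14 higher and 4 lower (median -0.19). TCF7 was among the higher, and CD5, CD28 and CD69 were among the lower. The counts moved to 1 higher and 5 lower without sh-NC replicate 2, and to 3 of each without sh-SH2D1A replicate 1. S1PR1, the receptor by which T cells leave tissues, had 25.4 and 26.4 CPM with sh-SH2D1A, against 18.1 and 13.6 CPM with sh-NC (0.71 ± 0.15), a call lost without sh-NC replicate 2 (adjusted p = 0.0771). Of 22 cytotoxic and effector genes only 8 were expressed enough to be tested, and IL32 and GZMA were lower, with 1 higher without sh-SH2D1A replicate 2. GZMA, granzyme A, had 14.7 and 15.3 CPM with sh-SH2D1A, against 38.7 and 36.9 CPM with sh-NC (-1.33 ± 0.11; adjusted p = 0.00021), while PRF1, perforin, had 9.49 and 7.94 CPM with sh-SH2D1A, against 8.30 and 8.11 CPM with sh-NC (0.09 ± 0.18) and did not pass.

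Matrix genes, unusual in lymphoid cells, were higher in 4 of 14 tested members and lower in 1 (median 0.42). ELN, elastin, had 6.86 and 7.84 CPM with sh-SH2D1A, against 0.586 and 0.734 CPM with sh-NC (3.47 ± 0.27; adjusted p = 0.000132), and VCAN, versican, had 4.30 and 4.26 CPM with sh-SH2D1A, against 0.482 and 0.629 CPM with sh-NC (2.94 ± 0.30; adjusted p = 0.000771). LAMB1, a laminin chain, had 36.9 and 37.5 CPM with sh-SH2D1A, against 23.5 and 24.2 CPM with sh-NC (0.64 ± 0.10). The controls held under 1 CPM of ELN and VCAN and both knockdown libraries over 4 CPM. ADAMTS1, a matrix protease, was lower, with 37.1 and 38.2 CPM with sh-SH2D1A, against 51.2 and 52.9 CPM with sh-NC (-0.47 ± 0.09), and was not called without sh-SH2D1A replicate 1 (adjusted p = 0.0921). In bulk RNA, a change in the share of cells that express a gene and a change in the RNA of each such cell cannot be told apart.

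Genes on both sides of the survival balance were lower. BCL2, which protects mitochondria from permeabilisation, had 53.3 and 57.6 CPM with sh-SH2D1A, against 81.7 and 80.6 CPM with sh-NC (-0.55 ± 0.09; adjusted p = 0.00709), and MCL1, which does the same, had 141 and 138 CPM with sh-SH2D1A, against 188 and 196 CPM with sh-NC (-0.46 ± 0.08). PMAIP1 (NOXA), which opposes MCL1, had 46.2 and 40.7 CPM with sh-SH2D1A, against 74.3 and 76.2 CPM with sh-NC (-0.79 ± 0.10), and BAX, which forms the pore, had 43.7 and 37.6 CPM with sh-SH2D1A, against 77.4 and 60.1 CPM with sh-NC (-0.76 ± 0.13). BBC3 (PUMA) had 15.5 and 12.9 CPM with sh-SH2D1A, against 28.6 and 22.7 CPM with sh-NC (-0.85 ± 0.15), and missed the threshold without sh-NC replicate 1 (adjusted p = 0.0618). These 5 were the called members of 21 tested (median -0.03), and BCL2L1 (150.3 and 146 CPM with sh-SH2D1A, against 151 and 140.3 CPM with sh-NC) overlapped between arms. Of 25 tested p53 targets 6 were lower and none higher (median -0.29), so 24% were called, against 3.78% of all tested genes, not matched for level. Among the lower was DDB2, a DNA damage sensor, with 95.8 and 95.2 CPM with sh-SH2D1A, against 158 and 164 CPM with sh-NC (-0.75 ± 0.08; adjusted p = 0.00076). MDM2, the ligase that degrades p53, had 159.7 and 163 CPM with sh-SH2D1A, against 128 and 154 CPM with sh-NC (0.20 ± 0.10) and did not pass.

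Calls among cell division genes lay mostly in the G1 and S phase list. Of 28 tested G1 and S phase genes 4 were lower and 1 was higher (median -0.18), and of 25 mitotic genes 1 was higher (median 0.01). The shares called were 17.9% and 4%, against 3.78% of all tested genes, not matched for level. CDKN2D, an inhibitor of CDK4 and CDK6, had 40.2 and 37.7 CPM with sh-SH2D1A, against 67.9 and 60.1 CPM with sh-NC (-0.72 ± 0.10), and CCNE2, a cyclin of S phase entry, had 39.2 and 40.1 CPM with sh-SH2D1A, against 53.6 and 59.3 CPM with sh-NC (-0.51 ± 0.10). MKI67, the proliferation marker, had 1394 and 1705 CPM with sh-SH2D1A, against 1474 and 1502 CPM with sh-NC (0.06 ± 0.09), and the arms overlapped. TOP2A had 885 and 938 CPM with sh-SH2D1A, against 954 and 1037 CPM with sh-NC, and MCM7, of the replicative helicase, had 587 and 553 CPM with sh-SH2D1A, against 639 and 572 CPM with sh-NC, neither called. Without sh-NC replicate 1, 2 of the G1 and S phase genes were lower and none was higher. No mitotic gene was called in any of the 4 fits with 1 library left out.

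Among genes with a symbol and a mean of 10 CPM or more, the 5 largest rises and the 5 largest falls include genes of no common pathway. MIAT, a long non-coding RNA, had 88.8 and 95.5 CPM with sh-SH2D1A, against 35.8 and 31.8 CPM with sh-NC (1.45 ± 0.10; adjusted p = 9.11e-05), SERPINB2, a plasminogen activator inhibitor, had 33.2 and 34.5 CPM with sh-SH2D1A, against 12.9 and 11.7 CPM with sh-NC (1.46 ± 0.12), and PDGFC, a platelet-derived growth factor, had 66.3 and 63.6 CPM with sh-SH2D1A, against 24.7 and 26.1 CPM with sh-NC (1.35 ± 0.10). With RAG1 and RAG2 these were the rises, and the falls were XBP1, SH2D1A, SH3BP1, TBCA and ANXA1. TBCA, a cofactor that folds tubulin, had 35.99 and 30.8 CPM with sh-SH2D1A, against 100.3 and 87.1 CPM with sh-NC (-1.49 ± 0.11; adjusted p = 9.98e-05), while TUBA1B (2389 and 2498 CPM with sh-SH2D1A, against 2515 and 2557 CPM with sh-NC) and TUBB (451 and 452 CPM with sh-SH2D1A, against 451 and 461 CPM with sh-NC) did not pass. ANXA1, annexin A1, a mediator of glucocorticoid effects, had 34.2 and 33.1 CPM with sh-SH2D1A, against 88.1 and 94.9 CPM with sh-NC (-1.44 ± 0.09; adjusted p = 6.67e-05). SH3BP1, a Rac GTPase activator, had 19.7 and 20.8 CPM with sh-SH2D1A, against 34.5 and 81.3 CPM with sh-NC (-1.52 ± 0.29), so that its controls differed from each other, and without sh-NC replicate 2 the change was -0.78 (adjusted p = 0.00661).

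The other Jurkat time point and the other line have control libraries of their own. At day 8, 5.23% of 19266 tested genes were higher and 7.13% lower with sh-SH2D1A. Of the 721 genes called at day 10, 711 were tested at day 8, 671 had the same sign there and 484 were called in the same direction. Those 484 were 67.1% of the day 10 calls and 20.3% of the 2381 day 8 calls, and no gene was called in opposite directions. In 6T-CEM at day 10, 6.61% of 19610 tested genes were higher and 7.42% lower. There 706 of the 721 were tested, 569 had the same sign, 349 were called in the same direction and 44 in the opposite one. The 349 were 48.4% of the Jurkat day 10 calls and 12.7% of the 2752 calls in 6T-CEM. Across genes, which are not independent replicates, the day 10 changes in Jurkat correlated with those at day 8 at r = 0.34 (18544 genes) and with those of 6T-CEM at r = 0.23 (18226 genes).

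The difference between days was tested gene by gene. It passed in 4 of 20099 genes (0.0199%), in 10 without sh-NC replicate 1, and their day 10 changes are set beside those of day 8. HSPA5, the chaperone BiP of the endoplasmic reticulum, changed by -0.20 ± 0.08 at day 10 and 0.66 ± 0.05 at day 8. WSB1, a ubiquitin ligase adaptor, changed by -0.08 ± 0.08 at day 10 and -0.88 ± 0.05 at day 8. ERCC5, a DNA repair nuclease, changed by 0.04 ± 0.08 at day 10 and 1.03 ± 0.09 at day 8. None of these 3 was called at day 10. BEST1, a chloride channel, below the level the rule asks for and named after its values had been seen, had 0.609 and 1.52 CPM with sh-SH2D1A, against 14.02 and 13.1 CPM with sh-NC at day 10 (-3.68 ± 0.32; adjusted p = 0.000269) and changed by 1.02 ± 0.35 at day 8. XBP1 changed by -2.14 ± 0.19 at day 10 and -0.59 ± 0.44 at day 8, a difference that did not pass (adjusted p = 0.494).

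The difference between lines passed in 358 of 20770 genes (1.72%). The Jurkat change was the higher in 202 (0.973%) and the lower in 156 (0.751%). HLA class I genes stood on opposite sides of 0. HLA-B changed by -1.17 ± 0.10 in Jurkat and 0.71 ± 0.04 in 6T-CEM, a difference of -1.87 ± 0.11. B2M changed by -0.58 ± 0.08 in Jurkat and 0.38 ± 0.04 in 6T-CEM, a difference of -0.95 ± 0.08, and NLRC5 by -0.76 ± 0.10 and 0.82 ± 0.06, a difference of -1.58 ± 0.12. The 3 genes were lower in Jurkat and higher in 6T-CEM. MYC changed by 0.74 ± 0.08 in Jurkat and -0.07 ± 0.03 in 6T-CEM (0.81 ± 0.07), and TCF7 by 0.50 ± 0.07 and -0.13 ± 0.03 (0.63 ± 0.07). TFRC changed by 0.58 ± 0.08 in Jurkat and -0.13 ± 0.03 in 6T-CEM (0.72 ± 0.07). For RAG1 the changes were 2.11 ± 0.14 in Jurkat and 1.35 ± 0.04 in 6T-CEM (0.76 ± 0.14), and for RAG2 1.57 ± 0.15 and 0.80 ± 0.13, whose difference did not pass (adjusted p = 0.122). NFKB1, ALDOC, TBCA and ETV5 changed by -1.26 ± 0.07, -1.36 ± 0.11, -1.55 ± 0.07 and -1.42 ± 0.15 in 6T-CEM, and the difference passed for none of them (adjusted p = 0.651, 0.673, 0.883 and 0.939).

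**Figure D5:**
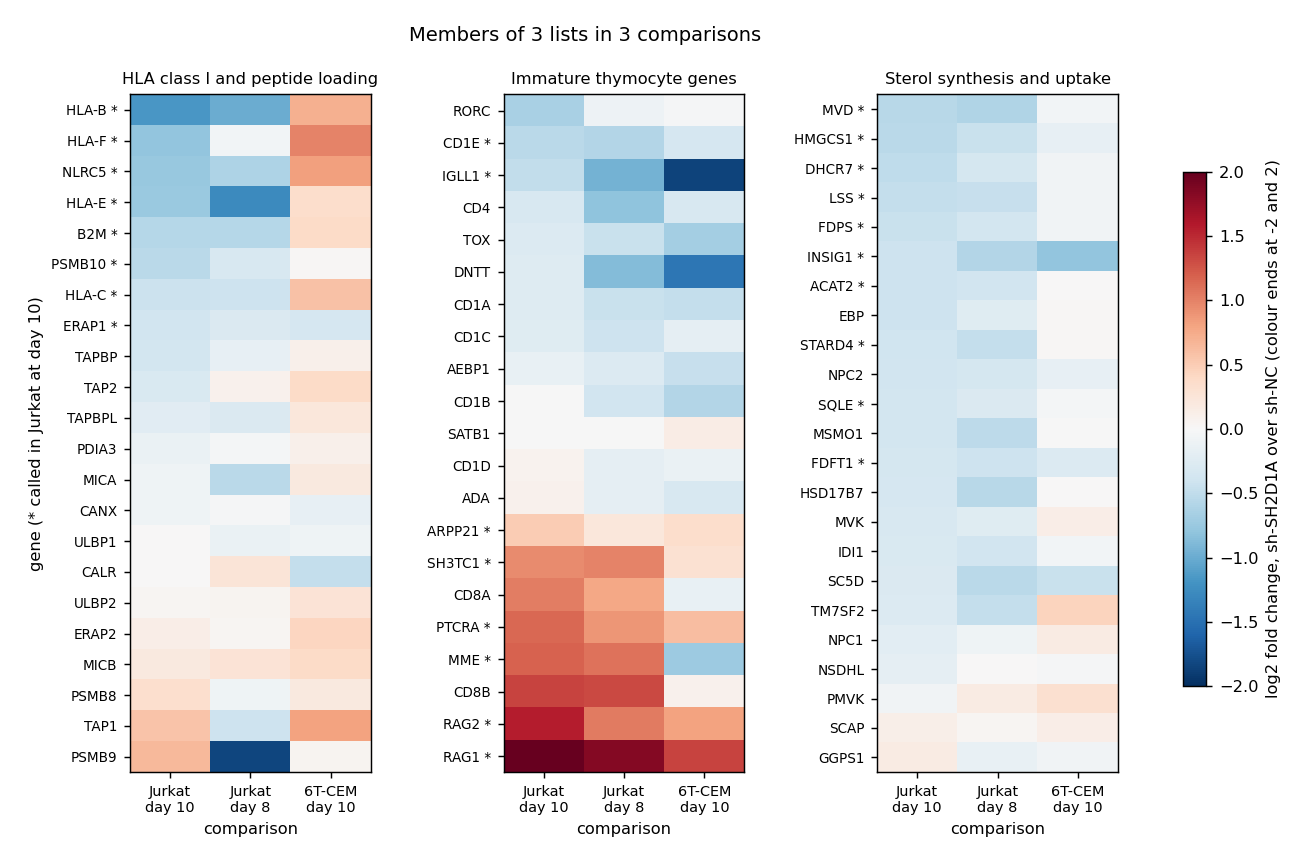
Log2 fold change of sh-SH2D1A over sh-NC (colour, red higher and blue lower, ending at -2 and 2) of tested members of 3 lists (rows) in 3 columns, which are Jurkat day 10, Jurkat day 8 and 6T-CEM day 10, with a star on genes called in Jurkat at day 10. HLA-B, HLA-E, NLRC5 and B2M are blue in Jurkat at day 10 and red in 6T-CEM, while RAG1 and RAG2 are red in all 3 columns.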

How the data were processed

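Total RNA of Jurkat and 6T-CEM cells was sequenced as cDNA, per the labels' protocols. The deposited tables hold whole-number read counts per Ensembl gene, and the authors' processing is known only by tool names: HISAT2 2.2.0, StringTie and hg38, per the submitters' processing notes. Neither the counter nor its strand setting is given in the sources used here. Gene names came with a supplied name table (40995 of 64252 identifiers), and spans, types and exon lengths from GENCODE 29 (56591 matched, and 1327 of the tested identifiers did not). Promoters came from RefSeq (GRCh38.p14).

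The 4 Jurkat day 10 libraries were fitted with edgeR 4.0.16 in R 4.3.3: filterByExpr with a minimum count of 10, TMM scaling and the two-sided quasi-likelihood test, with Benjamini-Hochberg adjustment over all tested genes. Differences between days and between lines were contrasts in fits of 8 libraries. DESeq2 1.42.0 and other filters, scalings and library sets were tried as alternatives. CPM per library uses its total over tested genes, adjusted by the TMM factor. Sums of marker genes use the total of all counts, from 29026797 to 30838474. Intervals and p-values cover the spread between 2 libraries an arm. The 2 libraries of each arm differed beyond counting error (chi-square per gene 8.97 for sh-SH2D1A and 9.617 for sh-NC), so neither pair is 1 library deposited again. Scripts were tested on simulated counts of 19079 genes. There the fit recovered 64% of 100 genes changed 2-fold and 86% of 100 changed 4-fold, with 25 false calls.

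Named genes are SH2D1A and CHI3L2; up to 10 called rises and falls with the largest change among the 500 most abundant; up to 6 called members of each list with the lowest adjusted p and up to 3 abundant members that were not called; the 5 largest rises and falls at 10 CPM or more; the 5 highest and lowest called differences at 5 CPM or more; and up to 3 called members of each gene family. Others are said to be named after their values were seen. The members and gene lists were chosen with earlier results of these data known. Some genes that this rule names are not reported here.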

Additional observations from a re-analysis of the deposited data

Results flagged for a closer look

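The change with sh-SH2D1A differed between Jurkat day 10 and Jurkat day 8 in 4 genes by edgeR's test of the difference itself. The differences, day 10 minus day 8 on the log2 scale, were -4.70 for BEST1, -0.997 for ERCC5, -0.87 for HSPA5 and 0.79 for WSB1. BEST1 was called lower at day 10, and the other 3 were called at day 8 but not at day 10.

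Between Jurkat and 6T-CEM at day 10 the change differed in 358 genes by the same kind of test, and the named genes among them are given here as Jurkat minus 6T-CEM differences of log2 changes. They are grouped by the signs of the estimated changes, and a sign does not mean that the change was called in that line. The change was below 0 in Jurkat and above 0 in 6T-CEM for some of them, and the differences were -1.87 for HLA-B, -1.58 for NLRC5, -1.36 for LY9, -1.17 for CD28, -1.10 for HLA-E, -0.95 for B2M, -0.58 for IRF1 and -0.57 for CORO1A. Further differences of this kind were -0.41 for OGDH and -0.38 for SREBF2. The change was above 0 in Jurkat and below 0 in 6T-CEM for some of them, and the differences were 1.83 for SERPINB2, 1.81 for S1PR1, 1.27 for TRAT1, 1.26 for LUNAR1, 0.89 for PCDH9, 0.83 for SLC40A1, 0.81 for MYC and 0.72 for TFRC. Further differences of this kind were 0.63 for TCF7, 0.56 for CDK6, 0.50 for CALR, 0.45 for MAT2A, 0.45 for GNL3, 0.43 for CD47, 0.33 for LEF1 and 0.31 for SOX4. The Jurkat changes of CALR (0.01 ± 0.08) and CD47 (0.01 ± 0.08) were not called, and each turned negative in some fits that left out a library. In 6T-CEM the changes of CDK6 (-0.06 ± 0.04) and MAT2A (-0.02 ± 0.03) were not called. Opposite directions are therefore not shown for CALR, CD47, CDK6 and MAT2A. Both changes were below 0 for some of them, and the differences were 1.33 for ANXA1, 1.18 for DNTT, 1.16 for STAT5A, 1.07 for ITGA4, 1.00 for ADAMTS1, -0.82 for IL32, -0.61 for DTX1 and 0.61 for BCL2. Further differences of this kind were -0.60 for SH2D1A, 0.50 for TNFAIP3, -0.46 for ITGAL, 0.42 for TAL1, -0.42 for DHCR7, -0.41 for CHI3L2 and 0.37 for INSIG1. Both changes were above 0 for some of them, and the differences were 1.79 for ELN, 1.58 for VCAN, 1.16 for PDGFC, 0.92 for KIT, 0.76 for RAG1, 0.64 for SH3TC1, 0.61 for MIAT and 0.29 for HSP90AB1.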

How the results depend on the processing

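The fits differed in how many of 19079 genes passed at Jurkat day 10, where the fit described in the report called 721. When no low-count filter was applied, edgeR called 0 of 34173, with 3533 at an unadjusted p under 0.05, and with all 8 Jurkat libraries in the fit it called 1156. With 1 library left out between 557 and 979 were called. For the difference between days, where 4 genes passed, the DESeq2 Wald test called 117, the fit with no filter 0 (with 2158 at an unadjusted p under 0.05), the fit of all 16 libraries 1, and the fits with 1 library left out 4 to 10. For the difference between lines, where 358 passed, the DESeq2 Wald test called 706, the fit with no filter 114 and the fit of all 16 libraries 179. The cause of these shifts was not tested. Replicate numbers repeat across arms, but same-numbered libraries deviated from their arm means with a correlation of 0.0264 over all genes, while the second principal component (28.5% of the variance) had both replicate 1 libraries above 0 and both replicate 2 libraries below. The labels tie the numbers to no shared culture or day, so no pairing was assumed; with the replicate number as a block 1423 genes were called. Of 130 named genes that were called none changed direction under any of the settings tried, and 130 remained called with DESeq2 size factors, 128 by the DESeq2 Wald test, 0 with no filter and 110 to 125 with 1 library left out. Of 52 named genes that were not called, 17 changed sign with 1 library left out, among them CD226 (-0.37 without sh-NC replicate 2) and MKI67 (-0.098 without sh-SH2D1A replicate 2). A fit without 1 library assumes that the lone library varies like the other arm. Precision is limited by depth: the median SE of the log2 change was 0.547 under 1 CPM and 0.109 between 10 and 100 CPM. On each library's total of all counts, 3 counts correspond to 0.0973 to 0.1034 CPM.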

Other observations

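Vesicle traffic and long non-coding RNA genes also held calls. Of 57 tested RAB GTPases, which direct vesicles between membranes, 6 were lower and 2 higher with sh-SH2D1A. So 14% were called, against 3.78% of all tested genes, not matched for level. The lower count was 5 to 7 with 1 library left out, and the higher count was 0 or 1. RAB43 had 41.1 and 50.9 CPM with sh-SH2D1A, against 88.8 and 84.3 CPM with sh-NC (-0.91 ± 0.11; adjusted p = 0.00163 by edgeR). RAB33A had 15.7 and 13.5 CPM with sh-SH2D1A, against 28.01 and 27.8 CPM with sh-NC (-0.93 ± 0.13), and both genes separated the arms. AQP3, a channel for water and glycerol named after its values had been seen, had 56.9 and 55.6 CPM with sh-SH2D1A, against 107 and 93.2 CPM with sh-NC (-0.83 ± 0.09), again with no overlap. PCDH9, a protocadherin, was higher, with 99.02 and 109.9 CPM with sh-SH2D1A, against 54.6 and 64.6 CPM with sh-NC (0.81 ± 0.10).

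Of 897 tested long intergenic non-coding RNAs 17 were higher and 4 lower, so that 2.34% were called, against 3.78% of all tested genes, not matched for level. Without sh-NC replicate 1 they were 11 and 2, without sh-NC replicate 2 they were 13 and 2, without sh-SH2D1A replicate 1 they were 12 and 4, and without sh-SH2D1A replicate 2 they were 23 and 7. LUNAR1, a NOTCH-regulated RNA of T-ALL named after its values had been seen, had 52.99 and 54.9 CPM with sh-SH2D1A, against 30.3 and 30.6 CPM with sh-NC (0.82 ± 0.09; adjusted p = 0.00125 by edgeR), and the arms stood apart.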
